A study of Arabidopsis thaliana with 18 samples.

Results

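The data described here are the changes of splicing in sdg26-1 mutant plants of Arabidopsis thaliana between 25 °C and 16 °C. All 399 alternative splicing events of the deposited table were used, from 334 genes, whether or not the authors called a difference in sdg26-1, and each change is the percent spliced in (PSI, here a fraction of 0 to 1) at 25 °C minus that at 16 °C. The sdg26-1 plants account for 6 of the 18 samples of the study, which also holds sdg8-2 plants and wild-type (WT) plants at both temperatures. sdg26-1 and sdg8-2 are T-DNA insertion lines in the Col-0 background, the first in SDG26 (AT1G76710, also named ASHH1) and the other in SDG8, and WT is Col-0. Each mutant was represented by this 1 allele. All plants spent 5 weeks at 16 °C under a short-day cycle (8 h of light, 16 h of darkness), and those of the 25 °C groups were then moved to 25 °C for 1 day. Each of the 3 samples of a genotype and temperature held shoot apical meristems and young leaves of about 10 plants, after the removal of the other leaves. The authors merged the 3 samples before they estimated PSI, so each event has 1 value per genotype and temperature. No error between samples, no test and no p-value can therefore be given, and the number of reads behind a value is unknown. Only the rounding is known: values have 2 decimals, so a change is exact to 0.01. The table gives no expression levels, so neither the loss of SDG26 transcript nor tissue markers could be checked.

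SDG26 and SDG8 are methyltransferases for lysine 36 of histone H3, and its trimethylated form, H3K36me3, marks the bodies of transcribed genes. In mammals this mark is known to be read by a protein that binds a splicing regulator, and in Arabidopsis it is bound by related proteins. Plants change the splicing of many genes with ambient temperature, among them genes of the clock, of flowering and of splicing itself, and in Arabidopsis the retention of an intron is the most common form of alternative splicing. The table lists 5 kinds of event: intron retention (IR), alternative 3′ splice sites (A3), alternative 5′ splice sites (A5), exon skipping (ES) and mutually exclusive exons (MXE). PSI is taken here as the share of transcripts that keep the intron for IR and that include the exon for ES. For A3 and A5 the table does not say which splice site belongs to the spliced-in form, so their signs show only that the balance of the sites moved. Every listed event was called by the authors in at least 1 of the 3 genotypes, so the table leaves out events with no response, and the shares below describe the listed events and not the transcriptome.

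The table gives no position for an event. For 40 IR events the intron could be assigned from the RefSeq annotation of TAIR10.1, because the gene had a single listed IR event and a single annotated intron (6 events) or a single intron annotated both as spliced and as retained. All 40 introns began with GT and ended with AG, their median length was 108 bases (range 33 to 621), and 28 lay within coding sequence. Of these 28, 16 held an in-frame stop codon and 12 did not. Among the introns whose PSI was lower by at least 0.1 at 25 °C in sdg26-1, 7 of 11 within coding sequence held a stop, against 2 of 4 among those with a higher PSI. The 3 introns below are shown because they span the patterns in the data: a rise that was larger in sdg26-1, a rise that reached 0.1 in every genotype, and a fall of like size in every genotype. They are written 5′ to 3′ on the strand of the gene, with the splice site bases at both ends in capitals.
AT1G76720: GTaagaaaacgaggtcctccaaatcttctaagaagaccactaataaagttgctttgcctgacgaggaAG
AT3G61600: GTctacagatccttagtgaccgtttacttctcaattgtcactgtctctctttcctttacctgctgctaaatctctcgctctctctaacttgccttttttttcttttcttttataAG
AT1G48430: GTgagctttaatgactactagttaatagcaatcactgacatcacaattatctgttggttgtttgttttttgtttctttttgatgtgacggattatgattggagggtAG

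The intron of AT1G76720 (chr1:28798204-28798272, minus strand), a gene annotated to the translation initiation factor eIF-2 family, has 69 bases, a multiple of 3, and no in-frame stop. Its PSI in sdg26-1 was 0.85 at 25 °C and 0.53 at 16 °C, which is a change of 0.32, against 0.76 and 0.63 in sdg8-2 and 0.77 and 0.68 in WT. The gene is the neighbour of SDG26, with 1424 bases between them, and an effect of the insertion on its transcripts was not tested. The intron of AT3G61600 (chr3:22797938-22798053, plus strand) has 116 bases and an in-frame stop. This gene, ATPOB1, encodes a BTB/POZ protein of the kind that serves in ubiquitin ligases, and its PSI in sdg26-1 was 0.78 at 25 °C and 0.60 at 16 °C. Its change of 0.18 stood beside 0.16 in sdg8-2 and 0.11 in WT. The intron of AT1G48430 (chr1:17903000-17903107, minus strand), a dihydroxyacetone kinase gene, has 108 bases and also holds a stop. It was retained in 0.19 of transcripts at 25 °C and 0.44 at 16 °C in sdg26-1, and its changes were −0.25 in sdg26-1, −0.24 in sdg8-2 and −0.26 in WT.

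Over all listed events, more had a lower than a higher PSI at 25 °C in sdg26-1. The 130 A3 and 73 A5 events are counted with the rest, though their signs have no known direction. The pooled counts and medians thus describe PSI values, and only IR and ES changes can be read as a direction of splicing. PSI was higher in 172 events, lower in 223 and equal in 4. The median change was −0.05, the changes ranged from −0.48 to 0.43, and the median PSI was 0.49 at 25 °C and 0.52 at 16 °C. Changes of at least 0.1 were found in 238 events, or 59.6% of the list, of which 99 were higher (24.8%) and 139 lower (34.8%). The size was mostly moderate: the median absolute change was 0.11, the lower quartile was 0.07 and the upper 0.17, and 71 events (17.8%) reached 0.2, with 31 higher (7.77%) and 40 lower (10.0%). At 0.3 or more there were 8 higher and 13 lower events. The limit of 0.1 is a convention, and 23 events lay exactly on it and 16 at 0.09. Values near the ends of the scale shifted downward as well, with 37 events at or under 0.1 at 25 °C against 29 at 16 °C, and 35 at or over 0.9 at 25 °C against 42 at 16 °C. For comparison, 224 events (56.1%) in sdg8-2 and 204 (51.1%) in WT changed by 0.1 or more, both with a median change of −0.03. The order of the genotypes depended on the limit. At 0.2 there were 80 events in sdg8-2 and 70 in WT, and at 0.3 there were 17 and 15, against 21 in sdg26-1. Fewer events lay exactly on 0.1 in sdg8-2 (12) and WT (13) than in sdg26-1. The plot of PSI at both temperatures shows the spread around the line of no change.

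**Figure D1:**
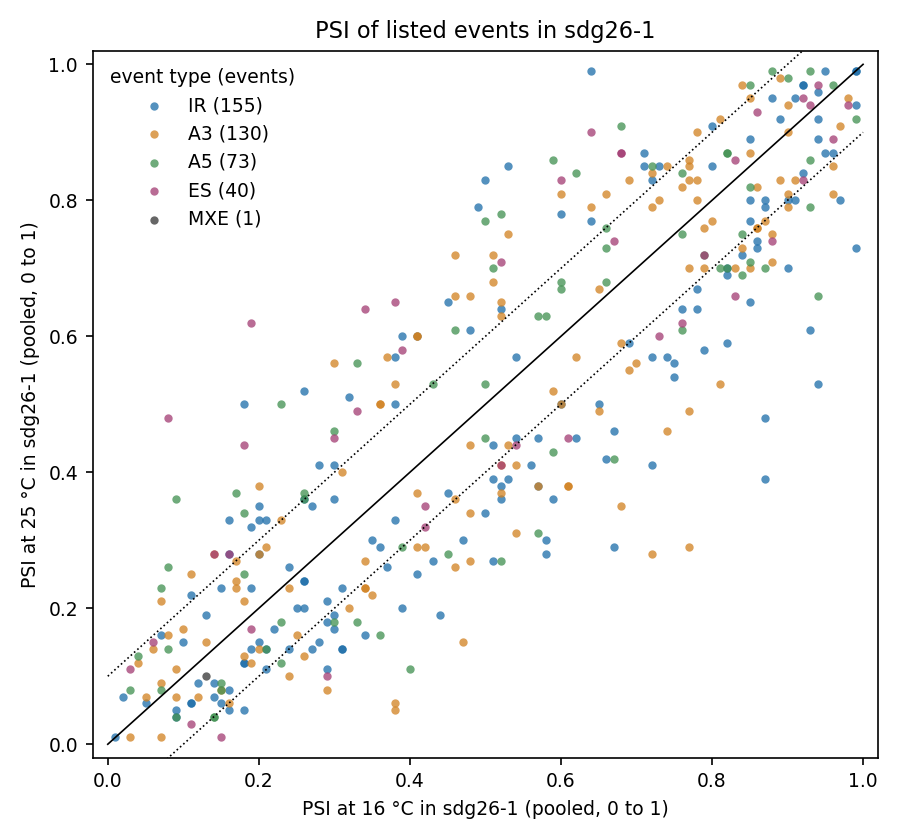
PSI of each of the 399 listed events in sdg26-1 at 25 °C (vertical axis) and 16 °C (horizontal axis), as fractions pooled over 3 samples, coloured by event type with the number of events in the legend. The solid line marks equal values and the dotted lines a change of 0.1, with 99 events on or above the upper and 139 on or below the lower dotted line.

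The direction differed between event types. IR events (155) were mostly lower at 25 °C, that is, less retained: 63 were lower by at least 0.1 and 31 higher, with a median change of −0.07 and a median PSI of 0.41 at 25 °C and 0.50 at 16 °C. The share of lower events among the changed IR events was 67.0% in sdg26-1, 65.4% in sdg8-2 and 52.6% in WT. Of the 130 A3 events 45 were lower and 31 higher, with a median of −0.04. The 73 A5 events were even, with 21 lower and 22 higher and a median of 0.03. ES events (40) leaned the other way, towards inclusion of the exon at 25 °C: 15 were higher and 10 lower, the median change was 0.03, and their median absolute change of 0.135 exceeded that of every other type with more than 1 event. The lean was not particular to sdg26-1, with 13 higher and 10 lower in sdg8-2 and 14 and 7 in WT. At a limit of 0.05 it was 19 higher and 15 lower in sdg26-1. The 15 include events of SCL33 and AAE18 with the same values, which may be a single event. At a limit of 0.2 all 7 changed ES events were higher, whereas IR had 8 higher and 19 lower. A3 had 7 higher and 15 lower, and A5 had 9 higher and 6 lower. The only MXE event, in AT3G24360, changed by −0.03 in sdg26-1, −0.21 in sdg8-2 and −0.15 in WT. The gene was named because its event is the only one of its kind. Its sdg26-1 values were 0.10 at 25 °C and 0.13 at 16 °C.

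Sorted by the level at 16 °C, high values mostly went down at 25 °C, and the result depended on how the classes were made. Events with a PSI over 0.8 at 16 °C in sdg26-1 (89) had 37 lower and 5 higher changes of at least 0.1, and their median change was −0.08. Events from 0.2 to 0.8 (234) had 96 lower and 75 higher, with a median of −0.05, and those under 0.2 (76) had 6 lower and 19 higher, with a median of 0.025. The low class was mixed: the 49 events from 0.1 had 24 higher and 25 lower values of any size and a median of −0.02, the 27 under 0.1 had a median of 0.05, and low IR events had a median of −0.03. An event near an end of the scale has little room to move further out. The 16 °C value is also the one subtracted, so error in it pulls high events down and low events up. Sorting by the 16 °C PSI of WT, which shares no sample with the sdg26-1 change, gave 30 lower and 7 higher changes among high events (84) and 9 lower and 12 higher among low events (70). Sorting by sdg8-2 gave 32 lower and 10 higher among high events (91) and 8 lower and 14 higher among low events (70). With classes from the mean PSI of both temperatures the pattern was lost: low events (70) had 13 lower and 5 higher changes and a median of −0.05, and high events (71) had 13 lower and 8 higher and a median of 0.00. Within the classes from sdg26-1 at 16 °C, of 36 IR events over 0.8, 16 were lower by 0.1 or more and 0 higher. Their median PSI at 16 °C was 0.905, so many had no room to rise by 0.1, and the 0 cannot be read as a direction. ES events over 0.8 (10) also had little room to rise, with a median PSI of 0.92 at 16 °C. They had 2 lower and 0 higher and a median change of −0.015. ES events below 0.8 had median changes of 0.105 (10 events under 0.2) and 0.11 (20 events from 0.2 to 0.8). The plot of changes by type and level sets these classes side by side.

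**Figure D2:**
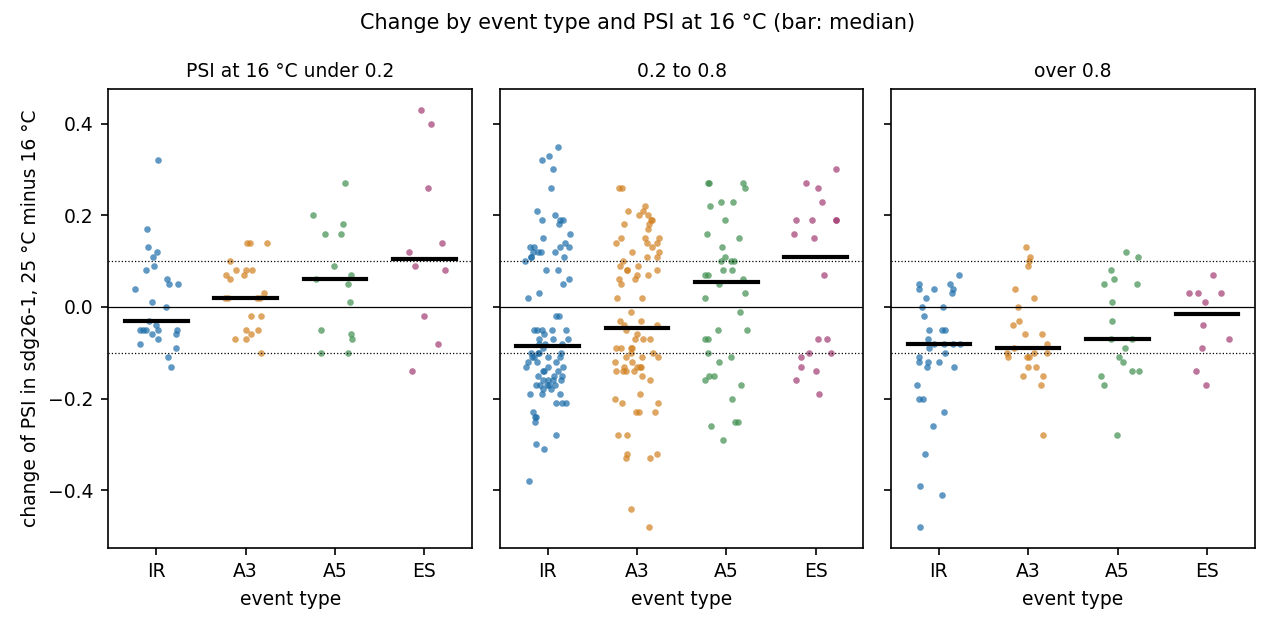
Change of PSI in sdg26-1 (25 °C minus 16 °C, vertical axis) of single events, by event type (horizontal axis) and by PSI at 16 °C in sdg26-1 (panels: under 0.2, 0.2 to 0.8, over 0.8). Black bars are medians and dotted lines mark a change of 0.1. Among IR events over 0.8, 16 lie at or under −0.1 and 0 at or over 0.1. Their median PSI of 0.905 at 16 °C left many no room to rise by 0.1.

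Rises and falls are here differences of pooled values and were not tested. The 15 largest rises came from 15 genes, with 6 IR, 5 ES and 4 A5 events and no A3 event. The exon of AT5G58370, a predicted nucleoside triphosphate hydrolase, was included in 0.62 of transcripts at 25 °C and 0.19 at 16 °C in sdg26-1, and its change of 0.43 was the largest of the list. The same exon changed by 0.31 in sdg8-2 and 0.36 in WT. AT4G17310, a gene of unknown function, had an IR event at 0.83 at 25 °C and 0.50 at 16 °C, which is a change of 0.33 against 0.24 in sdg8-2 and 0.13 in WT. The intron of ATNUDT13 (AT3G26690), a nudix hydrolase gene, was at 0.50 at 25 °C and 0.18 at 16 °C, with changes of 0.32 in sdg26-1, 0.16 in sdg8-2 and 0.31 in WT. AT5G57565, a predicted protein kinase, had an intron at 0.79 at 25 °C and 0.49 at 16 °C, with changes of 0.30, 0.29 and 0.20 in sdg26-1, sdg8-2 and WT. In AT5G52070, an Agenet domain gene, the PSI of the cassette exon was 0.64 at 25 °C and 0.34 at 16 °C in sdg26-1, which is a change of 0.30 that lay under those of 0.42 in sdg8-2 and 0.47 in WT. The annotation of TAIR10.1 holds a single cassette exon in this gene (chr5:21163579-21163648, plus strand), of 70 bases and so not a multiple of 3, shown with the exon in capitals between its flanking intron bases.
AT5G52070 exon: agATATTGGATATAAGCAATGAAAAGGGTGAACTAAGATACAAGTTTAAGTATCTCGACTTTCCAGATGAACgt

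The 15 largest falls came from 11 genes, with 7 IR, 7 A3, 1 A5 and 0 ES events. They were not independent of each other, since 3 of them were IR events of AT4G04200, a gene for a signal peptidase subunit, 2 were A3 events of AT1G78865, an unannotated locus, and 2 were A3 events of AT3G03350, an oxidoreductase-like gene. The 3 IR events of AT4G04200 had PSI of 0.39, 0.48 and 0.29 at 25 °C, against 0.87, 0.87 and 0.67 at 16 °C, so that the intron-containing form lay under 0.5 at 25 °C in each. Event positions are not given, so some of them may concern the same intron. AGO1 (AT1G48410), the main slicer of the microRNA pathway, had an A3 event at 0.46 at 25 °C and 0.74 at 16 °C in sdg26-1, and its changes of −0.28, −0.26 and −0.29 in sdg26-1, sdg8-2 and WT were nearly the same. ATMBAC1 (AT2G33820), a mitochondrial carrier for basic amino acids, had an intron at 0.28 at 25 °C and 0.58 at 16 °C in sdg26-1. Its level in sdg8-2, 0.74 at 25 °C and 0.97 at 16 °C, was much higher than in sdg26-1, while the changes of −0.30 in sdg26-1, −0.23 in sdg8-2 and −0.32 in WT were alike in size. SIR3 (AT1G16540), better known as ABA3 or LOS5, the molybdenum cofactor sulfurase needed for the last step of abscisic acid synthesis, had an A5 event at 0.11 at 25 °C and 0.40 at 16 °C, with changes of −0.29 in sdg26-1, 0.04 in sdg8-2 and −0.20 in WT. AT3G05165, a predicted transporter of the major facilitator superfamily, had an intron at 0.41 at 25 °C and 0.72 at 16 °C, against 0.34 and 0.44 in sdg8-2 and 0.44 and 0.46 in WT. In this gene sdg26-1 stood apart at 16 °C and not at 25 °C.

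The direction of these large changes was mostly shared by the other genotypes. Of the 15 rises, 14 were also higher in sdg8-2 and 14 in WT, and 12 reached 0.1 in each. Of the 15 falls, 13 were also lower in sdg8-2 and 15 in WT, and 12 and 13 of them reached 0.1. These 30 events were picked by their size in sdg26-1, so a smaller size in the other genotypes is to be read with that choice in mind.

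**Figure D3:**
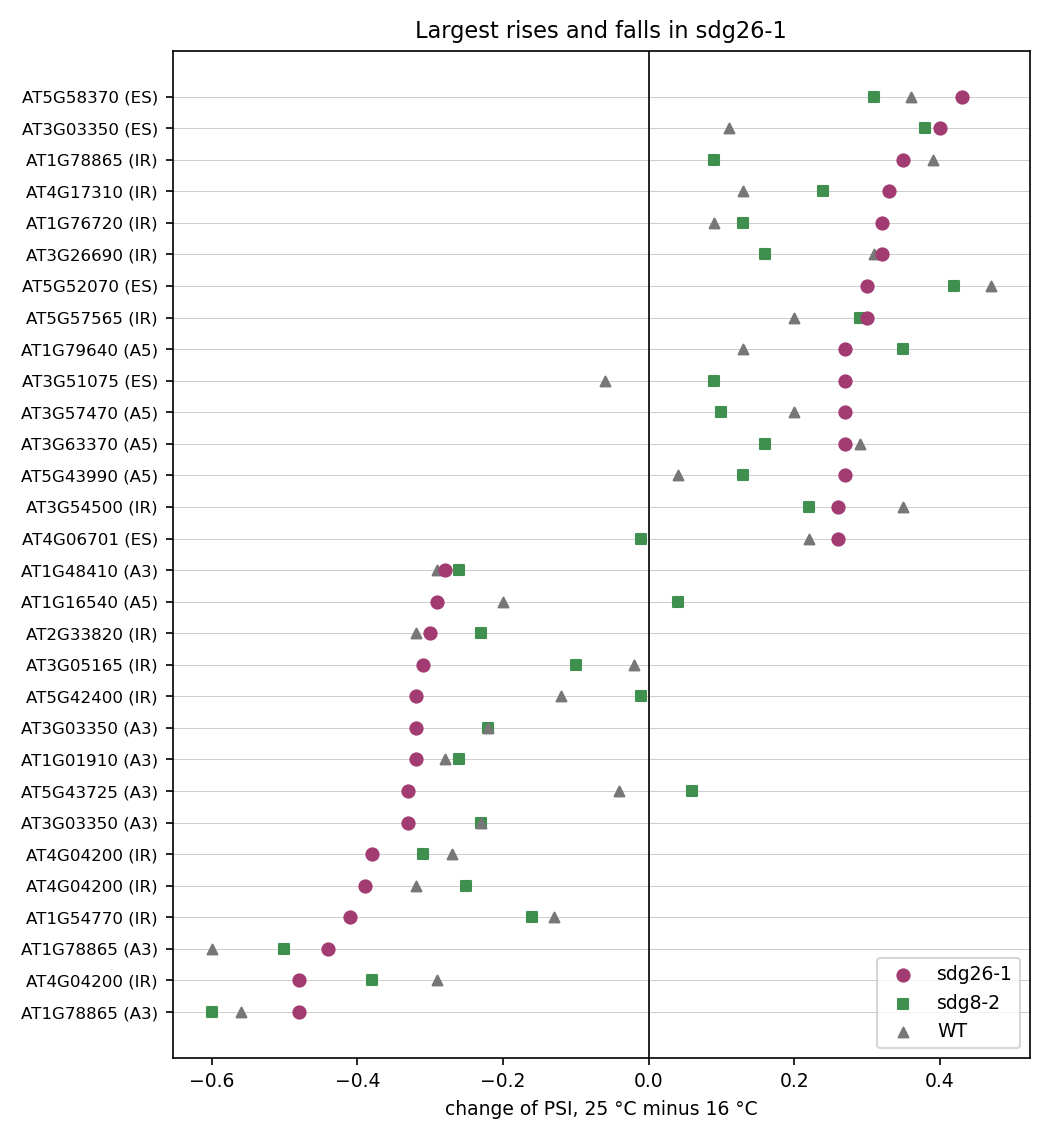
Change of PSI (25 °C minus 16 °C, horizontal axis) of the 15 largest rises and 15 largest falls in sdg26-1, each on a line with its gene and event type, with sdg26-1 as circles, sdg8-2 as squares and WT as triangles. Circles run from 0.43 to −0.48, and all 15 falls have a WT triangle left of 0.

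The genes were grouped into 12 lists by their annotated function, and 177 events of 151 genes fell into at least 1 list. Each list is read beside the whole table, in which 24.8% of events were higher by at least 0.1 and 34.8% lower. Splicing factors had 22 events, of which 7 were higher and 8 lower, and a median change of −0.01. Within the serine/arginine-rich (SR) family, whose members select splice sites, ES and IR events each went both ways. The ES event of RS40 (AT4G25500) changed by −0.14 in sdg26-1, −0.21 in sdg8-2 and −0.18 in WT, and that of SCL33 rose. The intron of RS40 changed by 0.08 in sdg26-1, 0.13 in sdg8-2 and 0.11 in WT, and the IR events of SR34b fell. RS31a (AT2G46610) had an A5 event at 0.42 at 25 °C and 0.67 at 16 °C, which is a change of −0.25 against −0.03 in sdg8-2 and −0.17 in WT. The IR events of SR34b (AT4G02430), which may or may not be separate introns, were at 0.54 and 0.65 at 25 °C, against 0.75 and 0.85 at 16 °C. They changed by −0.21 and −0.20 in sdg26-1, −0.09 and −0.13 in sdg8-2, and −0.01 and −0.07 in WT. The ES event of SCL33 (AT1G55310, listed as SR33) was at 0.87 at 25 °C and 0.68 at 16 °C, and its change of 0.19 stood beside 0.17 in sdg8-2 and 0.17 in WT. The same 6 values are listed for an ES event of the neighbouring gene AAE18 (AT1G55320) on the same assembled locus, so this may be a single event. AFC1 (AT3G53570), a kinase of the family that phosphorylates SR proteins, had an intron at 0.33 at 25 °C and 0.16 at 16 °C, with changes of 0.17 in sdg26-1, 0.08 in sdg8-2 and 0.03 in WT.

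Factors that bind the polypyrimidine tract ahead of a 3′ splice site were also listed. The A3 events of the U2AF65 genes, which encode the large subunit of the splicing factor U2AF, were at 0.55 at 25 °C and 0.69 at 16 °C in U2AF65A (AT4G36690) and at 0.41 and 0.54 in AT1G60900. The introns of the same genes were retained at 0.41 at 25 °C and 0.30 at 16 °C in U2AF65A and at 0.57 and 0.54 in AT1G60900. PTB1 (AT3G01150), a polypyrimidine tract-binding protein that acts on exon inclusion, had an ES event at 0.66 at 25 °C and 0.83 at 16 °C. Its change of −0.17 exceeded −0.07 in sdg8-2 and −0.05 in WT, and the PSI at 16 °C was 0.83 in all genotypes.

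Other RNA-binding and RNA-processing proteins (29 events) moved less than the table at large: 10 events (34.5%) reached 0.1, with 3 higher and 7 lower, and the median was −0.05. Few reached 0.1 in the other genotypes either, with 4 higher and 3 lower in sdg8-2 and 1 and 4 in WT. The exception in sdg26-1 was the intron of AT1G54770, a gene for a pre-rRNA processing factor of the Fcf2 family, at 0.53 at 25 °C and 0.94 at 16 °C. Its change of −0.41 was larger than those of −0.16 in sdg8-2 and −0.13 in WT. Of the 4 events in genes of small RNA and mRNA decay pathways, that of AGO1 is given above, and the intron of VCS (AT3G13300), a decapping scaffold, changed by −0.14. The exon of the NOT3-like gene AT5G18230, a subunit of the deadenylase complex, was at 0.71 at 25 °C and 0.52 at 16 °C. RDR6 (AT3G49500), the polymerase that makes double-stranded RNA for secondary small RNAs, had an A5 event at 0.53 at 25 °C and 0.50 at 16 °C in sdg26-1 and at 0.54 and 0.49 in sdg8-2, but at 0.43 and 0.67 in WT.

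Chromatin genes (25 events) had 8 higher and 6 lower events and a median change of 0.05. Their 4 largest changes were in ATXR7, AT5G52070 (given above), SUVR2 and HAC12. An intron of ATXR7 (AT5G42400), a histone methyltransferase known to promote the expression of the floral repressor FLC, was retained at 0.61 at 25 °C and 0.93 at 16 °C in sdg26-1. The change of −0.32 compared with −0.01 in sdg8-2 (0.87 and 0.88) and −0.12 in WT (0.84 and 0.96), so that sdg26-1 stood apart at 25 °C. The A3 event of the same gene was at 0.15 at 25 °C and 0.13 at 16 °C. SUVR2 (AT5G43990), a SET domain protein of RNA-directed DNA methylation, had an A5 event at 0.36 at 25 °C and 0.09 at 16 °C, with changes of 0.27 in sdg26-1, 0.13 in sdg8-2 and 0.04 in WT. HAC12 (AT1G16710), a CBP-type histone acetyltransferase, had A5 events at 0.31 and 0.27 at 25 °C, against 0.57 and 0.52 at 16 °C. They changed by −0.26 and −0.25 in sdg26-1 and by −0.23 and −0.22 in sdg8-2, whereas in WT they changed by −0.02 and −0.03. JMJ30 (AT3G20810, listed as JMJD5), a histone demethylase under clock control, had an A5 event at 0.91 at 25 °C and 0.68 at 16 °C, which is a change of 0.23 against 0.12 in sdg8-2 and 0.08 in WT. The values at 25 °C were 0.91, 0.90 and 0.92 in sdg26-1, sdg8-2 and WT, and those at 16 °C were 0.68, 0.78 and 0.84.

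Clock genes (11 events) had 4 higher and 3 lower events and a median of 0.08, and 6 of the 11 were A3 or A5 events. The intron of AT3G54500 (LNK2, a transcriptional coactivator of the clock) was retained at 0.52 at 25 °C and 0.26 at 16 °C, and its changes were 0.26 in sdg26-1, 0.22 in sdg8-2 and 0.35 in WT. An A3 event of AT5G06980 (LNK4, of the same family) was at 0.53 at 25 °C and 0.81 at 16 °C, with changes of −0.28, −0.20 and −0.21. CKB3 (AT3G60250), a regulatory subunit of the kinase CK2 that phosphorylates clock proteins, had an A5 event at 0.37 at 25 °C and 0.26 at 16 °C. All 3 events of PRR7, a repressor of the morning loop, stayed under 0.1 in sdg26-1, and they were much alike in the other genotypes. The ES events changed by −0.07 and −0.04 in sdg26-1, −0.08 and −0.04 in sdg8-2, and −0.08 and −0.05 in WT. The intron changed by 0.08 in sdg26-1, 0.08 in sdg8-2 and 0.11 in WT.

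Flowering time genes had 8 events, 2 higher and 3 lower. Apart from ATXR7, the largest change was in MAF3 (AT5G65060), a MADS-box repressor of flowering, whose exon was included at 0.44 at 25 °C and 0.18 at 16 °C. The exon rose in every genotype, by 0.26 in sdg26-1, 0.21 in sdg8-2 and 0.18 in WT. MAF1 (AT1G77080), also named FLM, a repressor known for its temperature-dependent splice forms, had an A5 event at 0.70 at 25 °C and 0.87 at 16 °C and an intron at 0.22 at 25 °C and 0.11 at 16 °C. In WT these events changed by −0.20 and 0.14, close to −0.17 and 0.11 in sdg26-1, whereas both events are listed at 0 at both temperatures in sdg8-2. Whether this 0 is a measured share or a missing estimate is not stated. It is counted here as no change in sdg8-2. Without such events, 107 in place of 109 changes differed by at least 0.1 between sdg26-1 and sdg8-2. The intron of AT2G02450, the NAC gene ANAC034, also known as LOV1 and a repressor of flowering, was at 0.57 at 25 °C and 0.72 at 16 °C, which is a change of −0.15 equal to that in WT.

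Protein kinases and phosphatases (26 events) had 11 higher and 8 lower events, and 73.1% reached 0.1. The same list had 9 higher and 3 lower events in sdg8-2 and 9 and 5 in WT. The A5 event of AT1G79640, a predicted kinase, was at 0.86 at 25 °C and 0.59 at 16 °C, and an intron of AT1G61430, a receptor-like kinase of the S-locus lectin type, was at 0.30 at 25 °C and 0.58 at 16 °C. Ubiquitin and protein turnover genes (18 events) had 4 higher and 8 lower events. The UMP1-like proteasome maturation gene AT1G62920 had A3 events at 0.38 and 0.26 at 25 °C, against 0.61 and 0.46 at 16 °C, with changes within 0.06 of each other across the genotypes. DNA repair and chromosome maintenance genes (10 events) had 3 higher and 5 lower events and a median of −0.115, and 7 of the 10 were A3 or A5 events. The intron of AT3G10440, a shugoshin gene that guards sister chromatid cohesion, was at 0.11 at 25 °C and 0.29 at 16 °C. MMZ3 (AT2G36060) and UEV1D-4 (AT3G52560), ubiquitin E2 variants linked to tolerance of DNA damage and members of both lists, had A5 events that changed by −0.17 and −0.15.

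Immunity genes (10 events) had 2 higher and 3 lower events. The intron of AT5G41750, a TIR-type disease resistance gene, was at 0.42 at 25 °C and 0.66 at 16 °C in sdg26-1, whereas the change was −0.03 in sdg8-2 and 0.11 in WT. RPP4 (AT4G16860), a resistance gene of the same class, had an intron at 0.64 at 25 °C and 0.52 at 16 °C in sdg26-1, but at 1.00 and 0.99 in sdg8-2. Membrane traffic and autophagy genes (12 events) had 2 higher and 4 lower events. Chloroplast genes (15 events) had 3 higher and 1 lower event, and 26.7% reached 0.1, beside 4 higher and 1 lower in sdg8-2 and 5 and 1 in WT. The largest change there was in the A5 event of OTP86 (AT3G63370), a pentatricopeptide-type organelle RNA editing factor, at 0.50 at 25 °C and 0.23 at 16 °C. Events of loci with no functional annotation (31 events of 18 loci) had 8 higher and 16 lower changes and a median of −0.11. With 4 to 29 events a list, these counts are descriptions only.

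**Figure D4:**
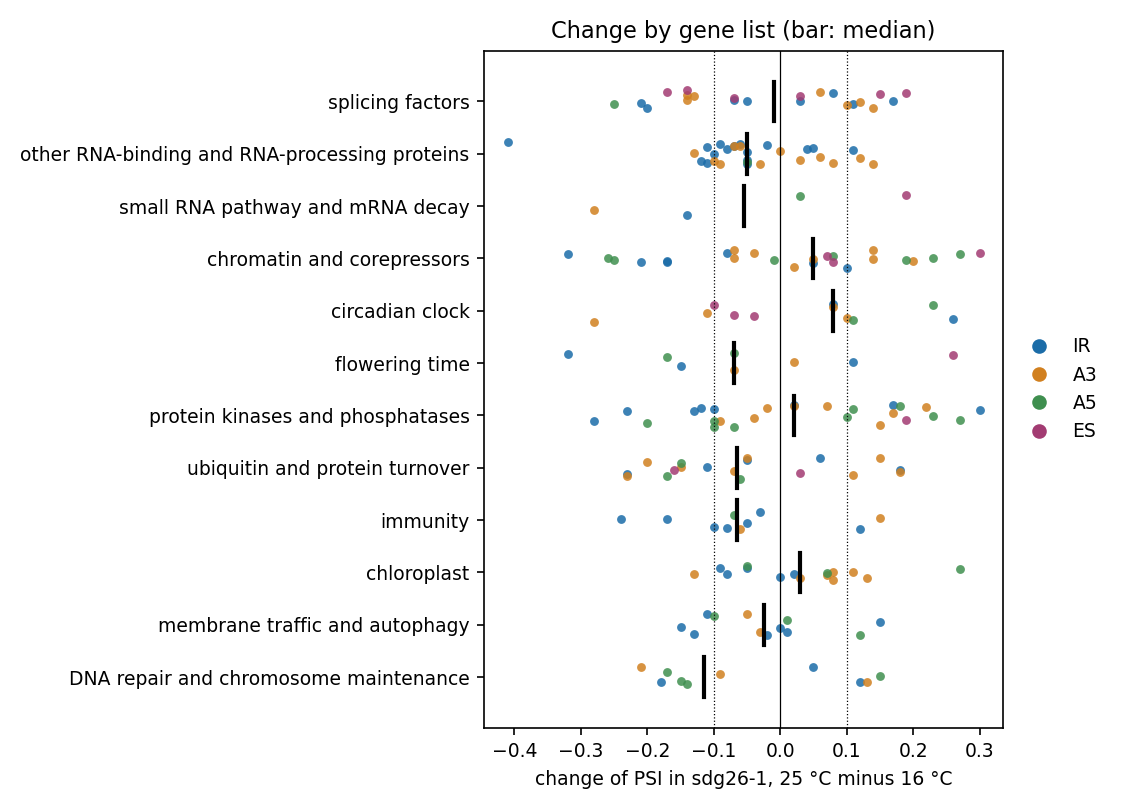
Change of PSI in sdg26-1 (25 °C minus 16 °C, horizontal axis) of the events of the 12 gene lists (vertical axis), each point an event coloured by its type, with medians as black bars and dotted lines at a change of 0.1. Signs of A3 and A5 events have no known direction, and every list has events on both sides of 0.

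Of 46 genes with at least 2 events, 26 had changes of 1 sign and 20 of both signs, and in 9 of these 20 both signs reached 0.1. The signs of A3 and A5 events cannot be read as a direction, so these counts do not say whether parts of a transcript moved alike. The unannotated locus AT2G38260 had 5 events, all past 0.1: the A5 event changed by 0.16 and the intron by 0.21, while the A3 event changed by −0.16 and the ES events by −0.14 and −0.13. In AT3G03350 the exon was included at 0.48 at 25 °C and 0.08 at 16 °C, which is a change of 0.40, and the A3 events were at 0.05 and 0.06 at 25 °C and both at 0.38 at 16 °C. ATTAP1 (AT1G70610), an ABC transporter, had A3 changes of 0.19 and −0.11 and an intron change of 0.13. Nearly the same values are listed for A3 events of the neighbouring gene AT1G70620 on the same assembled locus, so these may be the same events. Listed events of 2 or more genes were found on 4 assembled loci. AAE18, an acyl-activating enzyme, had 4 events, all higher at 25 °C by 0.12 to 0.23. Among them is the ES event with the same 6 values as that of SCL33, which may not belong to AAE18. Of the 90 pairs of events within a gene, 6 pairs had all 6 values within 0.02 of each other and may describe the same splicing choice. Such events are not independent of each other.

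Across events, the change in sdg26-1 followed those in sdg8-2 and WT. The Pearson coefficient over the 399 events was 0.79 with sdg8-2 and 0.77 with WT, and Spearman coefficients were 0.80 and 0.78. The 3 changes share no samples, but the events share genes, reads of the same loci and the selection by the authors' call, so the coefficients are descriptions with no test. The direction was the same as in sdg8-2 in 357 events and opposite in 33, and the same as in WT in 362 and opposite in 29. All 3 genotypes had the same direction in 335 events, and all 3 reached 0.1 in 126. The sdg26-1 change alone reached 0.1 in 44 of the 399 events, with 17 higher and 27 lower, and 14 of the 19 IR events among them were lower. That lean is near that of all sdg26-1 changes of at least 0.1, of which 58.4% were lower, and 67.0% for IR. With 23 sdg26-1 events exactly on 0.1, such counts depend on the limit. In 24 of the 399 events sdg8-2 and WT reached 0.1 and sdg26-1 did not.

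The change in sdg26-1 differed by at least 0.1 from that in sdg8-2 in 109 events (27.3%) and from that in WT in 90 (22.6%), and the error of these differences between samples is unknown. It lay outside the range of both by at least 0.1 in 37 events, with 16 above and 21 below. These were 14 IR, 10 A3, 8 A5, 4 ES and 1 MXE events. The gap between sdg26-1 and the mean of the others was wider at 25 °C in 18 of the 37 and wider at 16 °C in 19. Over the whole table, the sdg26-1 PSI was at least 0.1 above the mean of the others in 17 events at 25 °C and 19 at 16 °C, and at least 0.1 below it in 20 at 25 °C and 23 at 16 °C.

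The events farthest below the other genotypes included an intron of ATATG18F (AT5G54730), of an autophagy gene family, which was at 0.69 at 25 °C and 0.82 at 16 °C in sdg26-1, against 0.88 and 0.56 in sdg8-2 and 0.60 and 0.49 in WT. PLDGAMMA3 (AT4G11840), a phospholipase D, had an A5 event at 0.66 at 25 °C and 0.94 at 16 °C in sdg26-1, whereas sdg8-2 (0.82 and 0.80) and WT (0.83 and 0.84) hardly moved. The A3 event of AT5G43725, an unannotated locus, was at 0.35 at 25 °C and 0.68 at 16 °C in sdg26-1, against 0.74 and 0.68 in sdg8-2 and 0.50 and 0.54 in WT. The events farthest above the others included the A5 event of AT1G01740, a predicted kinase with tetratricopeptide repeats, at 0.56 at 25 °C and 0.33 at 16 °C in sdg26-1, against 0.41 and 0.45 in sdg8-2 and 0.36 and 0.40 in WT. The exon of AT3G51075, an unannotated locus, was at 0.65 at 25 °C and 0.38 at 16 °C in sdg26-1, against 0.58 and 0.49 in sdg8-2 and 0.55 and 0.61 in WT. In AT5G34790.1 the A5 event changed by 0.20 in sdg26-1 and 0.21 in sdg8-2 but by −0.27 in WT. Changes in sdg26-1 opposite to those in both other genotypes were found in 9 events. Those that reached 0.1 in sdg26-1 included the events of AT1G01740 and ATATG18F and an IR event of AT3G26085, at 0.33 at 25 °C and 0.21 at 16 °C. Another was an IR event of AT5G46730, at 0.38 at 25 °C and 0.52 at 16 °C. It changed by −0.14 in sdg26-1, 0.02 in sdg8-2 and 0.22 in WT.

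**Figure D5:**
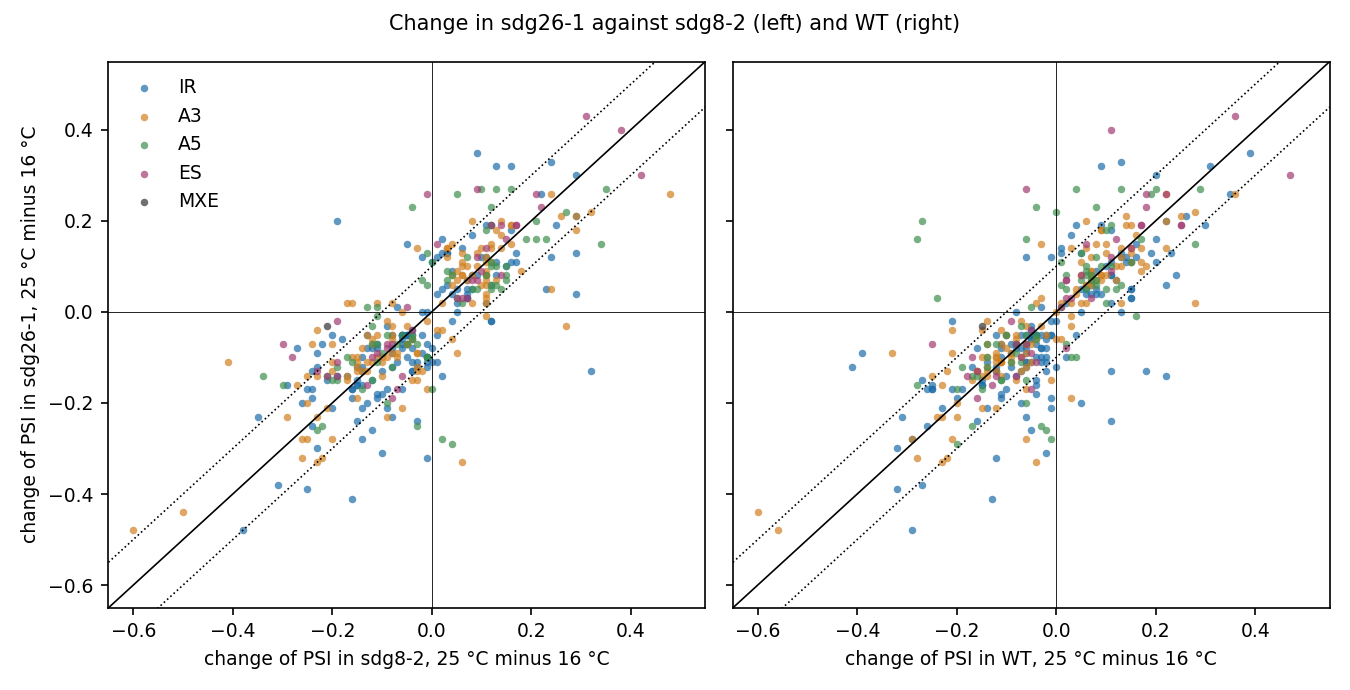
Change of PSI (25 °C minus 16 °C) of the 399 events in sdg26-1 (vertical axes) against the change in sdg8-2 (left) and WT (right), coloured by event type. The solid line marks equal changes and the dotted lines a difference of 0.1, which 109 events reach against sdg8-2 and 90 against WT.

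The most abundant form changed in a part of the events. In 61 events (15.3%) the PSI in sdg26-1 lay on the other side of 0.5 at 25 °C with a change of at least 0.1, upward in 23 and downward in 38. The same was found for 57 events (14.3%) in sdg8-2 and 53 (13.3%) in WT. Of the 61, 36 also switched in sdg8-2, 39 also in WT, and 18 in neither. Downward switches were 18 IR, 13 A3, 4 A5 and 3 ES events, and upward switches were 8 IR, 8 A3, 3 A5 and 4 ES events.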

How the data were processed

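RNA of shoot apex tissue was sequenced in 18 samples, 3 for each of 3 genotypes at 2 temperatures. Reads were mapped to TAIR10 with TopHat2 and transcripts assembled with Cufflinks (submitters' processing notes), and PSI was estimated with MISO (methods of the study). No tool version is given in the sources used here. Replicates were merged by the authors for each condition, and PSI was deposited as a fraction of 2 decimals. The authors' differences of PSI and their yes or no calls, which rest on a Bayes factor, on reads and on agreement of replicates, stand in the same table and were not used here. Merging gives each sample a weight by its reads and hides the spread between replicates, so no test was run.

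The change was computed as 25 °C minus 16 °C for every event and counted from an absolute size of 0.1. Event types were taken from the event names, functions from the table's annotation column, and levels at 16 °C were divided at 0.2 and 0.8. Of 334 genes, 332 had a RefSeq entry in TAIR10.1, and 306 of 313 with coding coordinates in both had the same ones. Introns, exons and sequences are from that annotation. A match of an event to an intron rests on the annotation only.

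Events were named by a rule on the sdg26-1 change: the 15 largest rises and falls, the 3 largest each way per type, the 4 largest in each gene list, the 5 most above and the 5 most below the mean of the other genotypes, the 5 largest crossing 0.5 each way, genes with 3 or more events, and genes the paper names. AT3G24360, AT3G26085, AT5G46730, the AFC1 event, the ATXR7 A3 event, other second events of named genes and the genes whose intron sequences are shown were chosen after their values were seen, as was the comparison of PSI levels between genotypes. The members and gene lists were chosen with earlier results of these data known. Alternatives used other limits, 1 event per gene or assembled locus, fewer event types, log2 odds (PSI limited to 0.01 to 0.99) and other classes. The work used Python 3.11.15, pandas 2.3.3, numpy 2.4.6, matplotlib 3.10.9 and scipy 1.17.1.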

Additional observations from a re-analysis of the deposited data

How the results depend on the processing

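Of the 65 alternative values, 47 counted as the same as the reported one, under loose rules that differed by kind of value. Counts had to lie within a fixed ratio of the reported count and medians within 0.01 of the reported median. Shares had to lie within the 95% binomial interval of the reported share, which was wide for short lists. That interval treats events as independent draws, which events of the same gene are not. The alternatives also reuse the same events, so a value that stayed the same is no independent support. Log2 odds needed only the same sign. The excess of lower over higher changes held at every limit: 204 lower and 146 higher at 0.05, 40 and 31 at 0.2, and 223 and 172 with no limit. These counts include A3 and A5 events, whose signs have no known direction. Without IR events 76 were lower and 68 higher, and the median change was −0.01 in place of −0.05. The pattern by level at 16 °C depended most on the classes. With classes from the mean of both temperatures, the median of low events reversed to −0.05, that of middle events was −0.07 and that of high events 0.00. Low events had a median of 0.01 with classes from sdg8-2. With limits of 0.1 and 0.9 the medians were 0.05 for low and −0.06 for high events. At 0.2 the share of lower ES events was 0% of 7, against 40.0% of 25 at 0.1. Differences from sdg8-2 numbered 229 events at 0.05 and 21 at 0.2, those from WT 198 and 31, and switches of the main form 33 at 0.2. These counts follow from the limit. No paired analysis was possible because the deposited values are merged over replicates, and no replicate could be left out for the same reason. The pooling leaves the error between samples and the depth unknown, so single differences between genotypes, which rest on 4 pooled values each, cannot be told from sampling noise here.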

Other observations

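A few further genes with several events or large changes were not described above. An IR event of the unannotated locus AT1G78865 was at 0.99 at 25 °C and 0.64 at 16 °C in sdg26-1, at 1.00 and 0.91 in sdg8-2, and at 1.00 and 0.61 in WT. The 3 IR events of AT1G61970, a gene of the mitochondrial transcription termination factor family, changed by −0.09, −0.08 and −0.07 in sdg26-1, less than in sdg8-2 (−0.23, −0.27 and −0.22) and WT (−0.39, −0.16 and −0.11). XDH2 (AT4G34900), a xanthine dehydrogenase of purine breakdown, had an A3 event at 0.56 at 25 °C and 0.30 at 16 °C, with changes of 0.26, 0.24 and 0.22 in sdg26-1, sdg8-2 and WT.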
